A study of Homo sapiens with 14 samples.

Results

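The genes of the nuclear transport machinery that are named as nucleoporins (NUP and NUPL), importins (KPNA, KPNB, IPO and TNPO) and exportins (XPO) were taken by their symbols from RNA-seq of CHP-134 cells. This gave 46 of the 17810 genes listed for cells with induced OmoMYC or EGFP, and 47 of the 19143 genes listed for parental cells. Enough reads to be tested were found for 45 and 46 of them, respectively. The gene left out in both experiments was KPNA7, with 0 counts in the 3 EGFP libraries and 2, 0 and 0 in the OmoMYC libraries. The importin KPNA2 is analysed here in parental cells only.

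Nuclear pore complexes are built from many copies of a limited set of nucleoporins, arranged as outer rings, an inner ring, a central channel lined with phenylalanine-glycine repeats, cytoplasmic filaments and a nuclear basket. Importins and exportins carry proteins and RNAs through the channel, and the small GTPase Ran sets the direction by loading and unloading them. Several scaffold nucleoporins also sit at kinetochores in mitosis, and dividing cells build new pores in each cycle.

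CHP-134 cells come from a human neuroblastoma, are kept as an established line and carry amplified MYCN. In the main experiment, cells carrying a Tet-On lentiviral transgene for EGFP (3 libraries) or for OmoMYC (3 libraries) were all given 1 µg/ml doxycycline for 3 days in medium with tetracycline-approved serum. OmoMYC is a dominant-negative form of the MYC dimerization domain, and the comparison asks which genes depend on N-MYC. In a separate experiment, parental cells without a tagged protein were treated for 18 h with DMSO (4 libraries) or with 500 nM dTAG47 (4 libraries). This compound degrades proteins fused to a mutant FKBP12 domain. The study ran this experiment to see what the compound does by itself, as a control for its degradation of tagged PDPK1. It is not a control for OmoMYC. The EGFP and OmoMYC cells are separately transduced and selected lines, so a difference between the lines cannot be told apart from an effect of the transgene. The study's methods call the libraries of a group biological replicates, and the p-values measure the spread between these libraries.

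The libraries held 28060817 to 38358128 counts in the OmoMYC experiment and 40861430 to 53451641 in the parental experiment. Counts on the MYC gene, from whose sequence OmoMYC is derived, rose from 0.610 ± 0.0684 to 522 ± 7.85 CPM (the gene's count relative to the library total, after TMM scaling; mean ± SD, n = 3) in the cells labelled OmoMYC. The neuroblastoma markers HAND2, GATA3 and MYCN were high in every library, while the catecholamine enzymes TH and DBH lay below 1.5 CPM. Blood and epithelial markers stayed below 2 CPM.

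Most transport genes were lower with OmoMYC. Of the 45 tested, 33 fell, 1 (IPO13) rose and 11 did not pass the test (edgeR's quasi-likelihood test with Benjamini-Hochberg adjustment over all 13803 genes, FDR below 0.05), whereas 25.7% of all genes tested fell and 27.3% rose. The falls ranged from 13.1% to 48.9% of the EGFP level, and 8 of them went past 1.5-fold (7.62% of all genes fell that far); the rise of IPO13 did too (13.4% of all genes). The log2 fold change was below 0 for 39 genes (48.9% of all genes) and above 0 for 6 (51.1%). The median log2 fold change was -0.36 over the transport genes and 0.01 over all genes. The OmoMYC libraries all lay below the EGFP libraries for 33 of the 45 genes (30.3% of all genes), and all above for IPO13 and IPO9 (32% of all genes). The median log2 ratio of the 45 genes to the EGFP mean was 0.08, -0.02 and -0.05 in the EGFP libraries and -0.35, -0.32 and -0.42 in the OmoMYC libraries. All 3 OmoMYC libraries therefore lay below all 3 EGFP libraries in this median. Whichever library was left out, 29 of the 33 falls stayed past the threshold, and IPO8, KPNA3, KPNA6 and TNPO3 lost their call in at least 1 fit without an OmoMYC library. CPM is a share of the library, and fewer cells of a type cannot be told apart from less RNA per cell.

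Genes of the cell cycle moved the same way: 16 of 19 fell, with a median log2 fold change of -0.53 and the largest fall in CDK1 (-1.03), and their part in the result was not tested. Nucleoporins and receptors were both affected. Of 23 nucleoporins 18 fell and none rose (median log2 fold change -0.43), and of 22 receptors 15 fell and 1 rose (median -0.28). The shares over all genes tested, for these counts and for the classes below, were 25.7% falling and 27.3% rising.

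**Figure D1:**
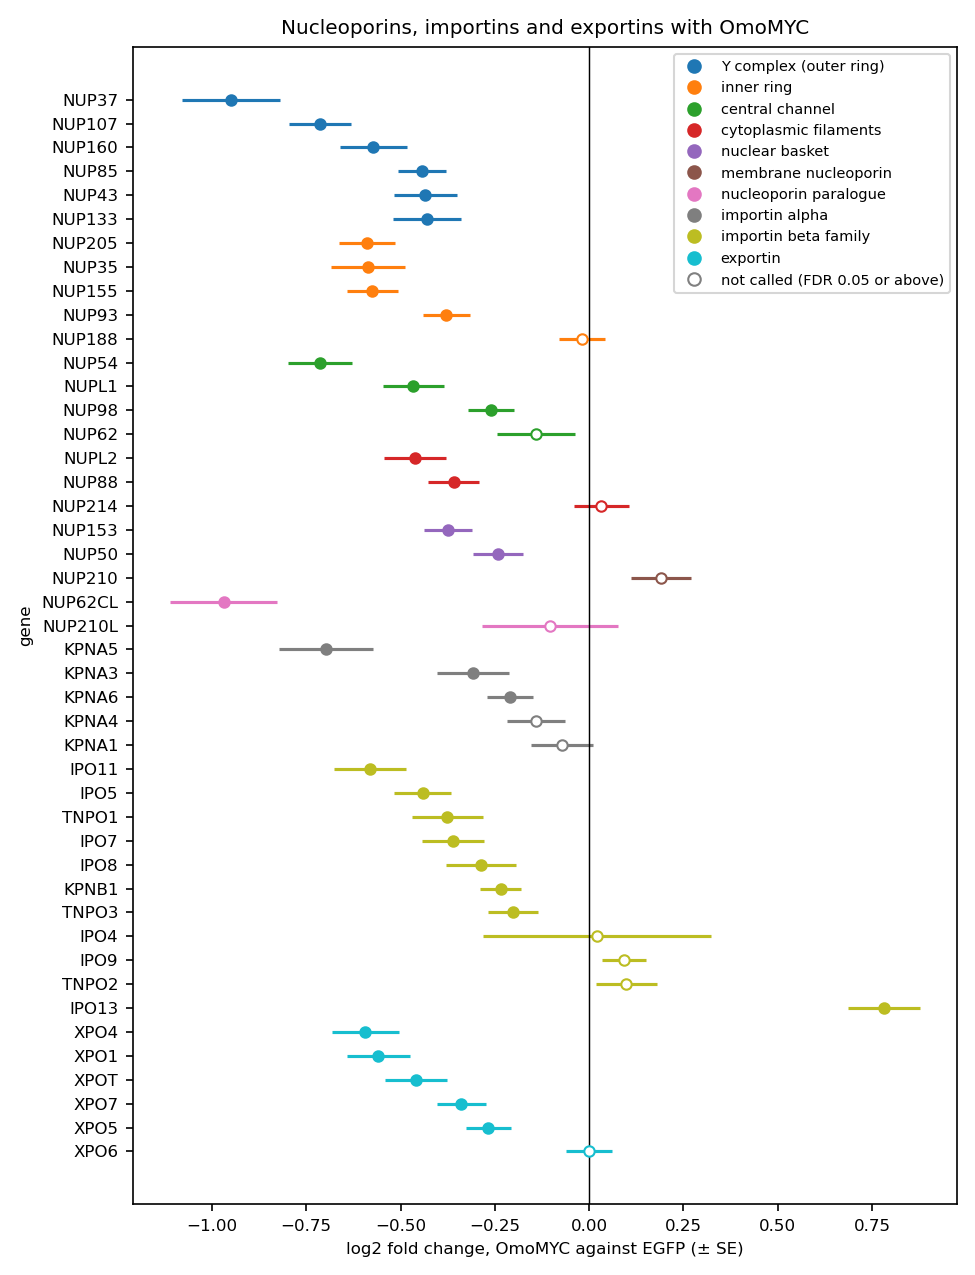
Log2 fold change with OmoMYC against EGFP (x axis, ± SE) of the 45 tested genes, grouped by place in the pore or kind of receptor (colour). Filled points passed an FDR of 0.05; 33 lie below 0, and IPO13 is the filled point above 0.

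The Y complex, the coat of the outer rings, was lower in all 6 of its members on the list (median log2 fold change -0.51). NUP37 (hg19 chr12:102466881-102513898, minus strand), a small subunit of the complex, had 41.3, 33.7 and 28.5 CPM in the EGFP libraries and 17.9, 19.2 and 16.5 CPM in the OmoMYC libraries. It fell by 48.2% (log2 fold change -0.95 ± 0.13 SE, adjusted p = 0.000187). NUP107, in the stem of the complex, had 146, 129 and 119 CPM with EGFP and 81.3, 79.8 and 79.1 CPM with OmoMYC (log2 fold change -0.71 ± 0.08 SE, adjusted p = 6.96e-05). The OmoMYC libraries of NUP37 and NUP107 all lay below every EGFP library. NUP160, at the hub of the complex, had 236, 193 and 190.0 CPM with EGFP and 144, 140.2 and 133 CPM with OmoMYC (log2 fold change -0.57 ± 0.09 SE, adjusted p = 0.00044). For NUP85 the values were 140.2, 143 and 149 CPM with EGFP and 107, 105 and 106 CPM with OmoMYC (log2 fold change -0.44 ± 0.06 SE, adjusted p = 0.000264). NUP85 varied least between the EGFP libraries of these 6 genes. NUP43 was measured at 73.4, 86.7 and 86.1 CPM with EGFP and 58.3, 62.8 and 60.9 CPM with OmoMYC (log2 fold change -0.43 ± 0.08 SE, adjusted p = 0.00152). NUP133, at the tip of the stem, changed least of the 6, with 132, 113 and 106 CPM with EGFP and 84.2, 91.8 and 84.1 CPM with OmoMYC (log2 fold change -0.43 ± 0.09 SE, adjusted p = 0.00249). None of the 6 had overlapping groups (30.3% of all genes had all OmoMYC libraries below the EGFP libraries).

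Of the 5 inner ring scaffold genes, 4 fell (median log2 fold change -0.57). NUP205 had 619.8, 531 and 531 CPM with EGFP and 379.5, 382 and 357 CPM with OmoMYC (log2 fold change -0.59 ± 0.07 SE, adjusted p = 0.000122). NUP155 had 315, 291 and 283 CPM with EGFP and 199, 207 and 192 CPM with OmoMYC (log2 fold change -0.57 ± 0.07 SE, adjusted p = 7.47e-05). NUP35, which binds the pore membrane, had 33.9, 31.3 and 30.1 CPM with EGFP and 21.8, 23.1 and 18.6 CPM with OmoMYC (log2 fold change -0.59 ± 0.10 SE, adjusted p = 0.000692). These 3 fell by about the same factor. NUP93, which links the ring to the channel, had 159, 159.7 and 156 CPM with EGFP and 124, 120.1 and 121 CPM with OmoMYC (log2 fold change -0.38 ± 0.06 SE, adjusted p = 0.000588). NUP188, the paralogue of NUP205, had 241, 246 and 257 CPM with EGFP and 252, 243 and 239 CPM with OmoMYC. Its groups overlapped and it did not pass the test (log2 fold change -0.02, 95% interval -0.16 to 0.12, adjusted p = 0.819). In the alternative fit with the trend on GC content and length removed, NUP188 was called lower (log2 fold change -0.22).

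In the central channel, 3 of 4 genes with phenylalanine-glycine repeats fell. NUP54 had 96.5, 86.5 and 81.7 CPM with EGFP and 56.0, 55.6 and 49.9 CPM with OmoMYC (log2 fold change -0.71 ± 0.09 SE, adjusted p = 8.41e-05), and its partner NUPL1 (now named NUP58) had 186, 171 and 161 CPM with EGFP and 125, 134 and 116 CPM with OmoMYC (log2 fold change -0.47 ± 0.08 SE, adjusted p = 0.000838). NUP98, a mobile nucleoporin, fell less (log2 fold change -0.26 ± 0.06 SE, adjusted p = 0.00506). The third member of the NUP54 complex, NUP62, had 75.1, 90.9 and 103 CPM with EGFP and 79.3, 81.3 and 83.6 CPM with OmoMYC. Its EGFP libraries spread over the range of the OmoMYC libraries (log2 fold change -0.14 ± 0.10 SE, adjusted p = 0.277), and 20.1% of its exon bases lie in exons of other genes. With the trend on GC content and length removed, NUP62 was called lower (log2 fold change -0.43).

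On the cytoplasmic side, NUP88 had 122, 113 and 114 CPM with EGFP and 91.1, 91.3 and 89.3 CPM with OmoMYC (log2 fold change -0.36 ± 0.07 SE, adjusted p = 0.00127), with 35.5% of its exon bases shared with neighbouring genes such as RABEP1 and RPAIN. NUPL2 (now NUP42), a docking site for mRNA export, had 32.1, 29.2 and 30.3 CPM with EGFP and 23.3, 21.9 and 21.4 CPM with OmoMYC (log2 fold change -0.46 ± 0.08 SE, adjusted p = 0.000915). The partner of NUP88, NUP214, had 115, 119 and 132 CPM with EGFP and 127, 126 and 121 CPM with OmoMYC and overlapping groups (log2 fold change 0.03 ± 0.07 SE, adjusted p = 0.725). NUP88 and NUPL2 thus lay below their controls in this fit and NUP214 did not. With the trend on GC content and length removed, NUP88 (log2 fold change -0.16) and NUP214 (-0.17) were called lower. NUPL2 (-0.08) was then not called. In the nuclear basket, NUP153 had 235, 223 and 226 CPM with EGFP and 181, 178 and 168 CPM with OmoMYC (log2 fold change -0.38 ± 0.06 SE, adjusted p = 0.000737). NUP50, which helps release cargo from importin alpha, had 171, 157 and 156 CPM with EGFP and 138, 139 and 133 CPM with OmoMYC (log2 fold change -0.24 ± 0.07 SE, adjusted p = 0.0115). Both basket genes therefore fell in this fit, but NUP50 (log2 fold change -0.07) was not called with the GC and length trend removed.

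The transmembrane glycoprotein gene NUP210 was the nucleoporin with the highest log2 fold change, with 115, 123 and 135 CPM with EGFP and 133, 144 and 148 CPM with OmoMYC (log2 fold change 0.19 ± 0.08 SE, adjusted p = 0.0643). It did not pass the test. Its germline paralogue NUP210L was measured at 1.71 to 2.51 CPM (log2 fold change -0.10 ± 0.18 SE, adjusted p = 0.65). NUP62CL, a paralogue of NUP62, was also low, with 5.90, 5.16 and 4.55 CPM with EGFP and 2.69, 2.62 and 2.66 CPM with OmoMYC, and fell by 48.9% (log2 fold change -0.97 ± 0.14 SE, adjusted p = 0.000288).

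Importin alpha genes encode the adaptors that read classical nuclear localization signals, and 3 of the 5 tested fell (25.7% of all genes). KPNA5 had 119, 97.1 and 80.1 CPM with EGFP and 61.0, 64.2 and 57.6 CPM with OmoMYC (log2 fold change -0.70 ± 0.12 SE, adjusted p = 0.001). KPNA3 had 131, 108 and 103 CPM with EGFP and 94.3, 95.4 and 86.1 CPM with OmoMYC (log2 fold change -0.31 ± 0.10 SE, adjusted p = 0.0194), and KPNA6 fell by 13.5% (log2 fold change -0.21 ± 0.06 SE, adjusted p = 0.0141). KPNA1 had 62.2, 55.3 and 52.3 CPM with EGFP and 54.7, 55.4 and 51.6 CPM with OmoMYC. Its groups overlapped (log2 fold change -0.07 ± 0.08 SE, adjusted p = 0.49), as did those of KPNA4 (log2 fold change -0.14 ± 0.08 SE, adjusted p = 0.148).

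Of the 11 genes of the importin beta family, 7 fell and 1 rose. KPNB1, the partner of the alpha adaptors, fell from 1152 ± 12.6 to 979 ± 8.28 CPM (log2 fold change -0.23 ± 0.05 SE, adjusted p = 0.0045). IPO5, an importer of ribosomal proteins and histones, had 888, 766 and 745 CPM with EGFP and 603, 601 and 561 CPM with OmoMYC (log2 fold change -0.44 ± 0.08 SE, adjusted p = 0.000814). IPO7, with a similar cargo range, had 595, 510.2 and 487 CPM with EGFP and 428, 425 and 388 CPM with OmoMYC (log2 fold change -0.36 ± 0.08 SE, adjusted p = 0.00418). All of these highly expressed receptors were lower in each OmoMYC library than in any EGFP library. IPO11, an importer of ubiquitin-conjugating enzymes, had 79.1, 68.0 and 63.5 CPM with EGFP and 46.8, 50.3 and 43.6 CPM with OmoMYC (log2 fold change -0.58 ± 0.10 SE, adjusted p = 0.000622), with 21.5% of its exon bases shared with other genes. TNPO1, which imports RNA-binding proteins, had 547, 451 and 421 CPM with EGFP and 356, 385 and 353 CPM with OmoMYC (log2 fold change -0.38 ± 0.09 SE, adjusted p = 0.00644). IPO8 (log2 fold change -0.29 ± 0.09 SE, adjusted p = 0.023) and TNPO3, the importer of serine and arginine-rich splicing factors (log2 fold change -0.20 ± 0.07 SE, adjusted p = 0.0251), showed smaller falls.

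IPO13 (hg19 chr1:44412622-44433694, plus strand), a receptor that both imports and exports, went the other way. It had 49.0, 54.4 and 63.3 CPM in the EGFP libraries and 99.8, 91.7 and 94.9 CPM in the OmoMYC libraries. The mean was 55.6 ± 7.20 CPM with EGFP and 95.5 ± 4.04 CPM with OmoMYC (n = 3), a rise of 71.9% (log2 fold change 0.78 ± 0.09 SE, adjusted p = 9.20e-05). IPO9, an importer of histones, had all OmoMYC libraries above the EGFP libraries but did not pass the test (log2 fold change 0.09 ± 0.06 SE, adjusted p = 0.203). TNPO2, the paralogue of TNPO1, had 275, 299.9 and 343 CPM with EGFP and 331, 320.3 and 331 CPM with OmoMYC, and its groups overlapped (log2 fold change 0.10 ± 0.08 SE, adjusted p = 0.322). IPO4 did not pass the test either (log2 fold change 0.02 ± 0.30 SE, adjusted p = 0.962). The IPO4 values rest on 13 to 33 counts a library, and 69.5% of its exon bases are shared with other genes.

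Of the 6 exportins, 5 fell. XPO1, the exporter of proteins with leucine-rich signals, had 614, 535 and 489 CPM with EGFP and 366, 387 and 359 CPM with OmoMYC (log2 fold change -0.56 ± 0.08 SE, adjusted p = 0.000334). XPO4, an exporter of the translation factor eIF5A, had 152, 133 and 128 CPM with EGFP and 92.9, 97.4 and 83.0 CPM with OmoMYC (log2 fold change -0.59 ± 0.09 SE, adjusted p = 0.000347). Both showed no overlap between the groups. XPOT, which exports tRNA, had 305, 269 and 254 CPM with EGFP and 205, 209.7 and 187 CPM with OmoMYC (log2 fold change -0.46 ± 0.08 SE, adjusted p = 0.000991). XPO7 had 238, 231 and 238 CPM with EGFP and 189, 195 and 175 CPM with OmoMYC (log2 fold change -0.34 ± 0.07 SE, adjusted p = 0.00171), and XPO5, the exporter of microRNA precursors, fell by 16.9% (log2 fold change -0.27 ± 0.06 SE, adjusted p = 0.00354). XPO6, which exports actin, had 248, 257 and 269 CPM with EGFP and 263, 252 and 259 CPM with OmoMYC. Its means were 258 CPM in both groups (log2 fold change -0.00038 ± 0.06 SE, adjusted p = 0.997, 95% interval -0.14 to 0.14). With the trend on GC content and length removed, XPO6 was called lower (log2 fold change -0.24).

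**Figure D2:**
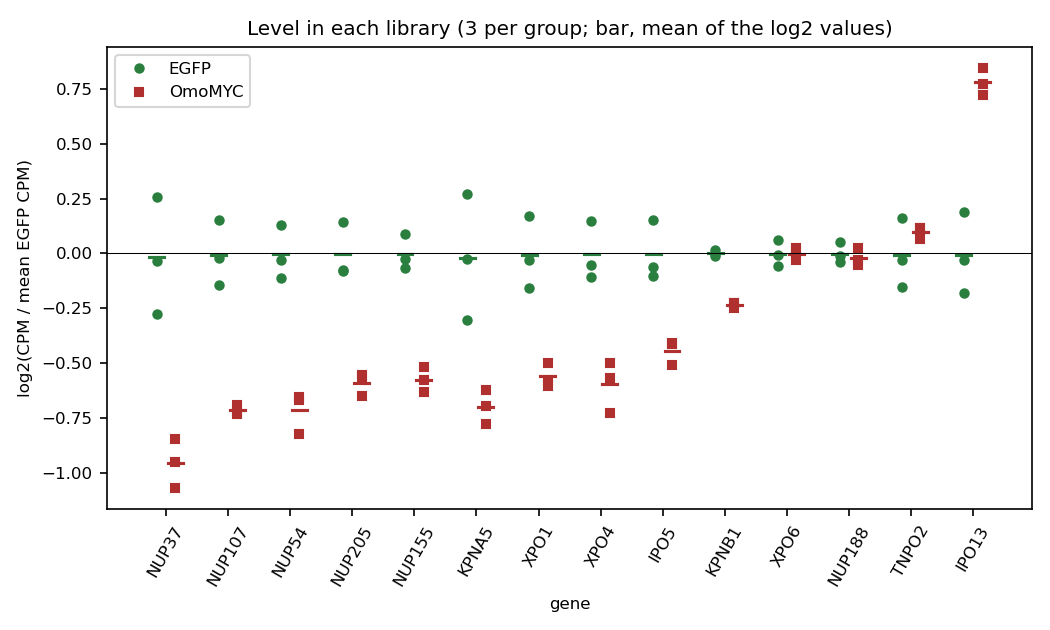
Level of 14 of the genes in each library, as log2 of CPM over the EGFP mean (y axis), for EGFP (green circles) and OmoMYC (red squares), 3 libraries each; bars are means of the log2 values. XPO6, NUP188 and TNPO2 overlap between the groups, IPO13 lies above, and the other 10 lie below.

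Levels between genes were compared as CPM per kilobase of merged exons. In EGFP cells KPNB1 was the highest at 112 ± 1.22 CPM per kb, followed by IPO5 at 82.7 ± 7.99, NUP205 at 73.6 ± 6.73 and IPO7 at 73.6 ± 7.88. The last 3 overlapped in mean ± SD. They were measured in the same libraries, so this spread is shared, and whether they differ was not tested. XPO5 came next at 55.3 ± 1.93 CPM per kb. The lowest tested were NUP62CL at 2.79 ± 0.363, NUP210L at 0.395 ± 0.0312 and IPO4 at 0.140 ± 0.0182 CPM per kb. For IPO4, 69.5% of the exon bases are shared with other genes. The order also depends on the length used, as merged exons can be much longer than the longest transcript (23843 against 8930 bases for XPO1). In DMSO-treated parental cells, KPNA2 had 101 ± 0.553 and KPNB1 96.6 ± 2.69 CPM per kb (n = 4).

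Other genes of the pathway, on a list kept apart from the members, gave 14 falls and 4 rises among 36 tested (median log2 fold change -0.17). Of all tested genes, 25.7% fell and 27.3% rose. Pore subunits outside the NUP names gave 5 falls among 11, with the largest in NDC1, a pore membrane protein (-0.82). Of the 6 genes of the Ran cycle, RAN (-0.35) and RANBP1 (-0.31) fell, and NUTF2, which imports Ran itself, rose (0.59). Among 4 further receptors, CSE1L, which returns importin alpha to the cytoplasm, fell most (-0.79). The 15 mRNA export genes gave 5 falls and 3 rises, with PCID2 (-0.77) the largest fall and THOC6 (0.33) the largest rise. The counts for the Ran cycle and mRNA export stand near the shares of all genes, and nothing is read from them.

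The log2 fold changes moved with base composition. The GC content of the longest transcript was below 50% for 36 of the 45 genes, and 32 of these fell, against 39.7% of all genes below 50%. Of the 9 genes at or above 50%, only NUP85 fell and IPO13 rose, against 8.79% falling and 43.2% rising over all such genes; the 50% line was drawn after the values were seen. Spearman's rho of GC content with log2 fold change was 0.71 across the 45 genes and 0.48 across 13499 genes with a known GC content. These are correlations across genes that share the same 6 libraries. With the trend of each library on GC content and length removed, an alternative chosen after seeing the data, 33 members still fell (27.9% of all genes) and 2 rose (30.4%), but only 27 of the falls were in the same genes, and the median log2 fold change of the 45 genes was -0.24. IPO7, IPO8, KPNA3, NUP43, NUP50 and NUPL2 lost their call, while NUP188, NUP210, NUP214, NUP62, TNPO2 and XPO6 were then called lower and KPNA1 higher.

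**Figure D3:**
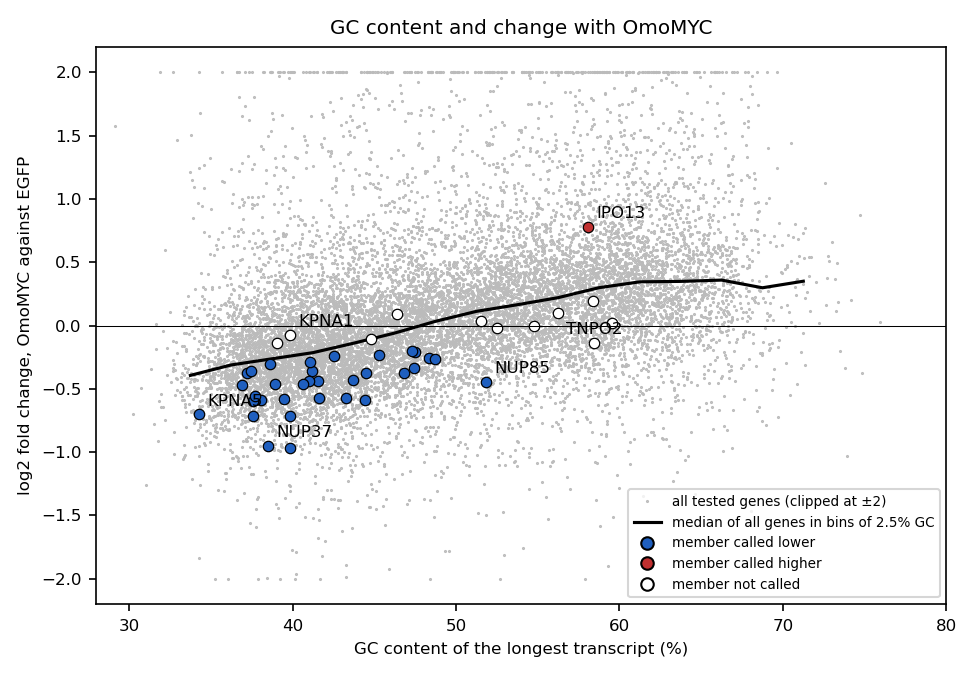
GC content of the longest transcript (x axis) against log2 fold change with OmoMYC (y axis, clipped at ±2) for the tested genes with a known GC content (grey), with the median in bins of 2.5% GC (line) and the 45 transport genes (large points, coloured by call). Most of the transport genes called lower lie below 50% GC and under the line, and IPO13 lies above it.

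Promoters were looked at for the E-box that MYC proteins bind, CACGTG, which reads the same on both strands, from 250 bases before to 50 after the transcription start (RefSeq sequences, GRCh38.p14). Sequences were found for 41 of the 47 genes, and KPNA4, KPNA5, KPNA7, KPNB1, NUP43 and XPO7 were not matched. For each member the first listed RefSeq promoter was taken, and whether its start is used in these cells was not checked. The shares over RefSeq promoters count every listed promoter. The E-box is in 6 of the 41 (14.6%) and in 7.3% of 35116 RefSeq promoters. The RefSeq promoters include those of genes not tested here, so the 2 shares come from unlike sets. Of the 6, IPO7, KPNA3 and NUP50 fell, while NUP188, TNPO2 and IPO4 did not pass the test, with a median log2 fold change of -0.13 against -0.40 for the 34 tested genes without it. Among all tested genes whose promoter was matched, 24.9% of the 1022 with an E-box and 26.6% of the 9163 without were called lower. These calls turn on the GC content and length correction, under which IPO7 (log2 fold change -0.07, adjusted p = 0.110), KPNA3 (0.0039, adjusted p = 0.944) and NUP50 (-0.07, adjusted p = 0.108) were not called, NUP188 (-0.22, adjusted p = 9.40e-05) and TNPO2 (-0.19, adjusted p = 0.000254) were called lower, and IPO4 (-0.29, adjusted p = 0.452) was not called. The promoters of 3 of these genes are shown for where the E-box lies in them, with the E-box in capitals, NUP188 (chr9:128947449-128947748, plus strand) holding it 2 times, TNPO2 (chr19:12723883-12724182, minus strand) and IPO7 (chr11:9384402-9384701, plus strand).
NUP188: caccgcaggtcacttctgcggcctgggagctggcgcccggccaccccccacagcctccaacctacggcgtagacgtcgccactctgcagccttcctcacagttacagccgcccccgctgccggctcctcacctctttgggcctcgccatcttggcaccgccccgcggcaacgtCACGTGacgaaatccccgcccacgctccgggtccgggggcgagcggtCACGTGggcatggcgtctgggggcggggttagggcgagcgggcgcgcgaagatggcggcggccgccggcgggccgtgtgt
TNPO2: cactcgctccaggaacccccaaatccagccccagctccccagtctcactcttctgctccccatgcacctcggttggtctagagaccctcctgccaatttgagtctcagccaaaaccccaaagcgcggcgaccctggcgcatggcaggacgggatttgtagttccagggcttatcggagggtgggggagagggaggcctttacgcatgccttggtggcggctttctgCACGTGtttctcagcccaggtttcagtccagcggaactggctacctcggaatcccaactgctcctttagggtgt
IPO7: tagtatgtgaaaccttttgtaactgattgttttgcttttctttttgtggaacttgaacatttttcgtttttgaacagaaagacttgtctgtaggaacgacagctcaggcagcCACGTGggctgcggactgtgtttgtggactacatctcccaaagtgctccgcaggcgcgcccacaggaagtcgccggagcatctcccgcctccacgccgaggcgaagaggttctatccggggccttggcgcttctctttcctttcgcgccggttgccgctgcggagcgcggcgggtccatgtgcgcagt

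A second pair of motifs is common in promoters of cell cycle genes, the CHR element TTTGAA and the CCAAT box, searched on both strands. The CHR element is in 8 of 41 member promoters (19.5%) and 15.2% of all, and the CCAAT box in 21 of 41 (51.2%) and 34.6% of all. Both occur in NUP205, NUP35, NUP37, NUP98 and KPNA2, and in 5.9% of all promoters. All promoters again means the RefSeq set, which includes genes not tested here, so these shares are not from like sets. The 4 of these tested with OmoMYC fell, and so did all 7 tested genes with a CHR element and 22 of 33 without one, and whether these shares differ was not tested. With the trend on GC content and length removed, IPO7, which has the element, was not called (log2 fold change -0.07). Of the genes without it, NUP188, NUP210, NUP214, NUP62, TNPO2 and XPO6 were then called lower. IPO8, KPNA3, NUP50 and NUPL2, also without it, lost their call. Among all tested genes with a matched promoter, 36.8% of the 973 with a CHR element and 25.3% of the 9212 without were called lower, and 40.9% of the 389 with both motifs. For the CCAAT box, 15 of 20 tested members with it fell and 14 of 20 without it. Over all such genes, 29.3% of the 3664 with it and 24.8% of the 6521 without were called lower. A match describes the letters only. Promoters of the 3 with the largest falls, NUP37 (chr12:102120065-102120364, minus strand), NUP205 (chr7:135557667-135557966, plus strand) and NUP35 (chr2:183124193-183124492, plus strand), are shown with both motifs, in either orientation, in capitals.
NUP37: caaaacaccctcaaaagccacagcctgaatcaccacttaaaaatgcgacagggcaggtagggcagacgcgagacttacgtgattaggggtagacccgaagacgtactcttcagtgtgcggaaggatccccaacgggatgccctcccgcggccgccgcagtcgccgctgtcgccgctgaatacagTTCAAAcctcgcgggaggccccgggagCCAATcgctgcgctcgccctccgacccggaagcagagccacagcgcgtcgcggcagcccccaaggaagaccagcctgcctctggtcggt
NUP205: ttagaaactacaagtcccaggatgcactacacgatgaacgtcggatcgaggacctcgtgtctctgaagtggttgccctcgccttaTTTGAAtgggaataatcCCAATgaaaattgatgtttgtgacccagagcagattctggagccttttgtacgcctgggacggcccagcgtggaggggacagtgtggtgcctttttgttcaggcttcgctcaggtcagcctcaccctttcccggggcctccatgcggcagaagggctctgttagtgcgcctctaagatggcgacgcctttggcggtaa
NUP35: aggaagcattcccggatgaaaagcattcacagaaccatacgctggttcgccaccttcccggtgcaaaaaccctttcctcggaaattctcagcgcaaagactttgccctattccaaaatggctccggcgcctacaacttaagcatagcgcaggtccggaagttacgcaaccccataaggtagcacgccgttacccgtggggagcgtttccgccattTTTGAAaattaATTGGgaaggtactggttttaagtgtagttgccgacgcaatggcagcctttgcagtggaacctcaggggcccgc

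In parental cells, dTAG47 left no transport gene past the threshold. None of the 46 tested was called, against 0.0415% of all genes falling and 0.117% rising, and none had an unadjusted p below 0.05, against 1053 of all 14470 genes (edgeR's quasi-likelihood test); DESeq2 also called 0. The log2 fold changes ran from -0.25 (NUP210L) to 0.13 (NUP62CL), with a median of -0.02, and 30 were below 0 (50.8% of all genes) and 16 above (49.2%). For 42 of the 46, the 95% interval of the difference lay within ±0.3; the others were IPO4, KPNA5, NUP210L and NUP62CL. No gene had all dTAG47 libraries below the DMSO libraries (1.47% of all genes). NUP88 was the 1 gene with all of them above (1.87% of all genes), at 102, 103, 102 and 103 CPM in the DMSO libraries and 109, 104, 107 and 106 CPM in the dTAG47 libraries (log2 fold change 0.05 ± 0.04 SE, adjusted p = 0.717).

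KPNA2, the importin alpha of dividing cells, had 742, 746, 737 and 745 CPM in the DMSO libraries and 772, 716, 731 and 742 CPM in the dTAG47 libraries. The groups overlapped (log2 fold change -0.004 ± 0.04 SE, adjusted p = 0.976, 95% interval -0.08 to 0.07). KPNA5 had 77.5, 74.2, 64.1 and 64.2 CPM in the DMSO libraries and 63.1, 74.0, 59.3 and 56.3 CPM in the dTAG47 libraries (log2 fold change -0.15 ± 0.08 SE, adjusted p = 0.675, 95% interval -0.32 to 0.02). The median log2 ratio of the 46 genes to the DMSO mean was 0.01, 0.03, -0.02 and -0.02 in the DMSO libraries and 0.01, 0.01, -0.06 and -0.05 in the dTAG47 libraries, so that replicates 3 and 4 were the lower ones in both groups. For KPNA5 too, replicates 1 and 2 of DMSO lay above replicates 3 and 4. TNPO1 showed the same split, at 480.2, 472, 433 and 417 CPM in the DMSO libraries and 426, 472, 398 and 387 CPM in the dTAG47 libraries (log2 fold change -0.10 ± 0.06 SE, adjusted p = 0.685). With a factor for replicates 1 and 2 against 3 and 4 in the edgeR fit, KPNA5 (log2 fold change -0.15, adjusted p = 0.0287) and TNPO1 (-0.10, adjusted p = 0.0469) were called lower and none higher, where 2.9% of all genes were called lower and 2.58% higher. Without dTAG47 replicate 2, this fit called 13 members lower, where 9.21% of all genes were called lower, and without dTAG47 replicate 3 it called KPNA5 alone, where 1.36% of all genes were.

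The experiments share no libraries, and the dTAG47 experiment is not a control for OmoMYC or doxycycline. The 33 genes that fell with OmoMYC had a median log2 fold change of -0.03 with dTAG47. In the parental experiment the log2 fold changes also followed GC content, with Spearman's rho 0.74 across the 46 genes and 0.46 across 14201 genes.

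**Figure D4:**
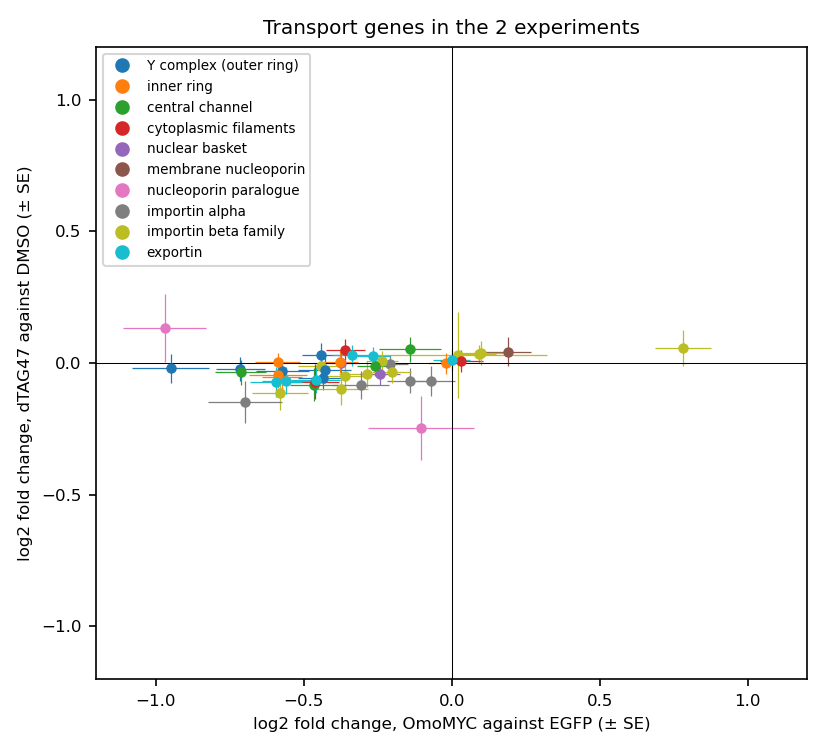
Log2 fold change (± SE) of the 45 genes tested in both experiments, with OmoMYC against EGFP on the x axis and with dTAG47 against DMSO on the y axis, coloured by class. The points spread along the x axis from -0.97 to 0.78 and stay between -0.25 and 0.13 on the y axis.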

How the data were processed

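RNA-seq of 14 CHP-134 libraries was analysed, from 3 EGFP, 3 OmoMYC, 4 DMSO and 4 dTAG47 samples grouped by their labels. The deposited values are counts per gene, which the authors made with STAR (hg19) and featureCounts from ribosome-depleted RNA, with no normalization. The strand setting and the handling of reads shared by genes are not given in the sources used here. The submitters' processing notes also name DESeq2. No column of counts was left out (0 columns not used).

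Each experiment was fitted by itself in R 4.3.3 with edgeR 4.0.16, using filterByExpr at its defaults, TMM scaling and the robust quasi-likelihood test, with Benjamini-Hochberg adjustment over all genes tested and an FDR of 0.05. Intervals of 95% come from the fitted log2 fold change and its SE. DESeq2 1.42.0, limma-voom (limma 3.58.1), other scalings and filters, a block for replicate number, a factor for replicates 1 and 2 against 3 and 4, and leaving out each library were tried as alternatives. The trend of log2 CPM on GC content and length (a prior count of 2) was removed from each library as an alternative chosen after seeing the data, and so was leaving out libraries within the factor fit. Coordinates and lengths come from GENCODE lifted to GRCh37, the sequence of hg19.

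On simulated data, edgeR recovered 70 of 100 genes changed by a log2 fold change of 0.5 and 94 of 100 changed by 1 in the OmoMYC design (13803 genes), and 88 and 97 of 100 in the parental design (14470 genes). It also called 10 and 11 unchanged genes, respectively. The simulation gave all genes the same dispersion, changed only these genes, equally up and down, and held no GC trend. The OmoMYC data differ from this in the share of genes called and in their GC trend, so these rates need not hold for them. Values per library are given for members called with OmoMYC with an absolute log2 fold change of at least 0.3 and for the members with the largest and smallest change in each class, and other values per library were chosen after they were seen. The members, classes and lists were chosen with earlier results of these data known.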

Additional observations from a re-analysis of the deposited data

Results flagged for a closer look

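Each group of 4 libraries in the parental experiment was searched for a library far from the rest, over 92 groups of values, of which chance alone would set apart about 5%. NUP98, the mobile nucleoporin of the central channel, gave both of the 2 cases found. DMSO replicate 4 had 205.5 CPM where the other DMSO libraries had 197.0 to 197.8 CPM, and dTAG47 replicate 1 had 201.1 CPM where the other dTAG47 libraries had 196.3 to 197.1 CPM. NUP98 was not called in this experiment, and the spread of its libraries was small against its level.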

How the results depend on the processing

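With OmoMYC, 33 members were called lower and 1 higher under limma-voom, DESeq2, scaling by library size alone, by RLE or by upper quartiles, without a filter and with a minimum of 10 counts in every library, with a median log2 fold change of -0.38 to -0.35. Leaving out each library gave 30 to 34 lower, 1 to 2 higher and a median of -0.41 to -0.34. Of the 33 genes, 29 were called in every such fit; the others lost their call without OmoMYC replicate 1 (IPO8, KPNA6 and TNPO3), replicate 2 (TNPO3) or replicate 3 (IPO8, KPNA3 and TNPO3), and NUP62 (without EGFP replicate 1), KPNA4 and NUP210 (without EGFP replicate 3) were added. The main fits did not pair libraries by replicate number. Correlations of same-numbered deviations were 0.0760, -0.0697 and 0.293, and 0.00930, 0.109, 0.101 and 0.159 in parental cells. Those of different numbers ran from -0.29 to 0.25, and from -0.23 to 0.25 in parental cells. Whether the numbers pair the libraries was not tested. A block for the number gave 33 lower and 2 higher with OmoMYC, adding NUP210, and 1 lower (KPNA5) with dTAG47. Removal of the GC and length trend gave 33 lower, 2 higher and a median of -0.24 with OmoMYC, and turned KPNA1 (0.15), KPNA3 (0.0039), NUP210 (-0.20), NUP214 (-0.17) and TNPO2 (-0.19); the cause was not tested. A sign change in a gene called in neither fit is not counted here.

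With dTAG47, 0 members were called under DESeq2, limma-voom, the other scalings and filters, the GC and length correction, leaving out any library, and replicates 1 and 2 alone. The factor for replicates 1 and 2 against 3 and 4 gave 2 lower, and 0 to 13 lower when single libraries were left out of it. Replicates 3 and 4 alone gave 3 lower (IPO11, KPNA5 and TNPO1). Counting error limits IPO4 and NUP210L most.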
